A study of Mus musculus with 9 samples.

Results

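De novo lipogenesis is the route by which a cell makes fatty acids from the carbon of sugars and amino acids. The 10 genes described here were chosen by name as the enzymes of this route and its main transcriptional regulators, and each was matched by symbol to a single gene among the 54532 genes of the deposited tables. The enzymes were Acly, Acaca, Acacb, Fasn, Scd1, Scd2, Elovl6 and Me1, and the regulators were Srebf1 and Mlxipl. All 10 genes had counts in at least 1 library of every comparison and entered every test.

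The cells were 3T3-L1, a mouse fibroblast-like line of preadipocytes that turns into fat-laden adipocytes when treated with hormones. Undifferentiated cells (n = 3) were grown to confluence in high-glucose medium with calf serum, held confluent for 3 days and given no adipogenic treatment. Differentiated cells (n = 3) were held confluent for 3 days and then given a mix that induces adipogenesis, of insulin at 10 μg/mL, the glucocorticoid dexamethasone at 1 μM, the PPARγ ligand rosiglitazone at 1 μM and the phosphodiesterase inhibitor IBMX at 0.5 mM. Lysfree cells (n = 3), likewise confluent for 3 days, received the same adipogenic agents in medium to which no lysine was added. By the study's methods the differentiation medium held fetal serum, so Undifferentiated cells also differed from the other groups in serum and base medium. Poly A RNA of bulk cultures was sequenced. All 9 libraries came from a single cell line, and the labels do not say whether libraries of a group came from separate cultures, so p-values measure only the spread between these libraries.

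In the cytosol, ATP citrate lyase cleaves citrate exported from mitochondria into acetyl-CoA. Acetyl-CoA carboxylase turns acetyl-CoA into malonyl-CoA, and fatty acid synthase builds palmitate from malonyl-CoA with reducing power from NADPH, part of which malic enzyme supplies. Elongases and stearoyl-CoA desaturases then lengthen the chain and add a double bond, and the transcription factors SREBP-1 (gene Srebf1) and ChREBP (gene Mlxipl) are known to drive the enzyme genes in liver and fat.

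Total counts ranged from 15880144 to 21806693 per library, so that 3 counts, taken here as the detection floor, corresponded to 0.138 to 0.189 CPM (counts scaled to the library total). Lysfree replicate 1 stood apart from Lysfree replicates 2 and 3. The chi-square of its counts per degree of freedom was 43.3 and 44.4 against them, compared with 2.76 to 12.3 for the other pairs within groups. Results on Lysfree are therefore given with and without this library where a call moved, and for some genes where only a value moved. P-values of fits with and without it cannot be compared, since leaving it out also changes the fitted spread. A smaller p-value without it is thus not stronger evidence. The 8 adipocyte markers (Pparg, Cebpa, Fabp4, Adipoq, Plin1, Cd36, Lpl and Cidec) summed to 314 to 395 FPKM (fragment counts scaled by gene length and library total) in Undifferentiated, 6890 to 7245 in Differentiated and 292 to 408 in Lysfree libraries. The 6 preadipocyte and fibroblast markers (Dlk1, Pdgfra, Col1a1, Col1a2, Vim and Thy1) summed to 3965 to 4298, 1006 to 1011 and 1474 to 1532 FPKM. Macrophage, endothelial, muscle, epithelial and hepatocyte lists summed to at most 5.01 FPKM in any library, and Adgre1, Myod1, Epcam, Alb and Ttr had 0 counts throughout. The summed adipocyte markers were thus highest in Differentiated libraries. The other groups overlapped only through Lysfree replicate 1, while Lysfree replicates 2 and 3 lay below every Undifferentiated library. All 8 adipocyte markers were lower in Lysfree vs Differentiated, with log2 fold changes from −7.74 to −1.11. In Lysfree vs Undifferentiated they went both ways, from Adipoq at −3.74 to Cd36 at 2.18. Their part in the values below was not tested. In bulk RNA, fewer cells of a type and less RNA per cell cannot be told apart.

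Of the 10 lipogenesis genes, 6 (Acly, Fasn, Scd1, Scd2, Srebf1 and Mlxipl) were at least 2-fold higher in Differentiated cells than in both other groups. Together all 10 genes took 0.844% ± 0.0178 (SD, n = 3) of all counts in Differentiated, 0.134% ± 0.00395 in Undifferentiated and 0.122% ± 0.00451 in Lysfree libraries. A gene was called when its adjusted p from edgeR was under 0.05 and its log2 fold change at least 1 in size, which is a 2-fold difference. In Differentiated vs Undifferentiated, 8 of 10 genes were called higher and 0 lower, where 10.4% of the 24402 genes tested were called higher and 11.4% lower. The median log2 fold change was 1.61 over the 10 genes and 0.02 over all genes tested. In Lysfree vs Differentiated, 7 of 10 were called lower and 0 higher, where 10.5% of the 24130 genes tested were called lower and 8.14% higher, with medians of −1.87 and −0.06. In Lysfree vs Undifferentiated, 1 of 10 was called lower and 0 higher, where 8.76% of the 23994 genes tested were called lower and 5.52% higher, with medians of −0.26 and −0.02. DESeq2 gave the same counts of called members, and at an unadjusted edgeR p under 0.05 the members counted 9 higher and 1 lower, 0 higher and 10 lower, and 2 higher and 5 lower, in that order of comparisons. Each pair of comparisons shares a group of 3 libraries. The genes were chosen with earlier results of these data known, so these counts and shares are no independent test.

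By adjusted p alone, 10 of 10 genes passed in Differentiated vs Undifferentiated (46.1% of all genes tested) and 10 of 10 in Lysfree vs Differentiated (38.5%). In Lysfree vs Undifferentiated 7 of 10 passed (35.1%), namely 2 higher and 5 lower, of which Scd1 did not pass under every alternative. The FPKM of the libraries did not overlap between groups for 10 genes in Differentiated vs Undifferentiated (50.9% of all genes), for 10 in Lysfree vs Differentiated (46.6%) and for 8 in Lysfree vs Undifferentiated (43.5%). Among these 8, the small gap of Srebf1 depends on how FPKM was scaled.

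**Figure D1:**
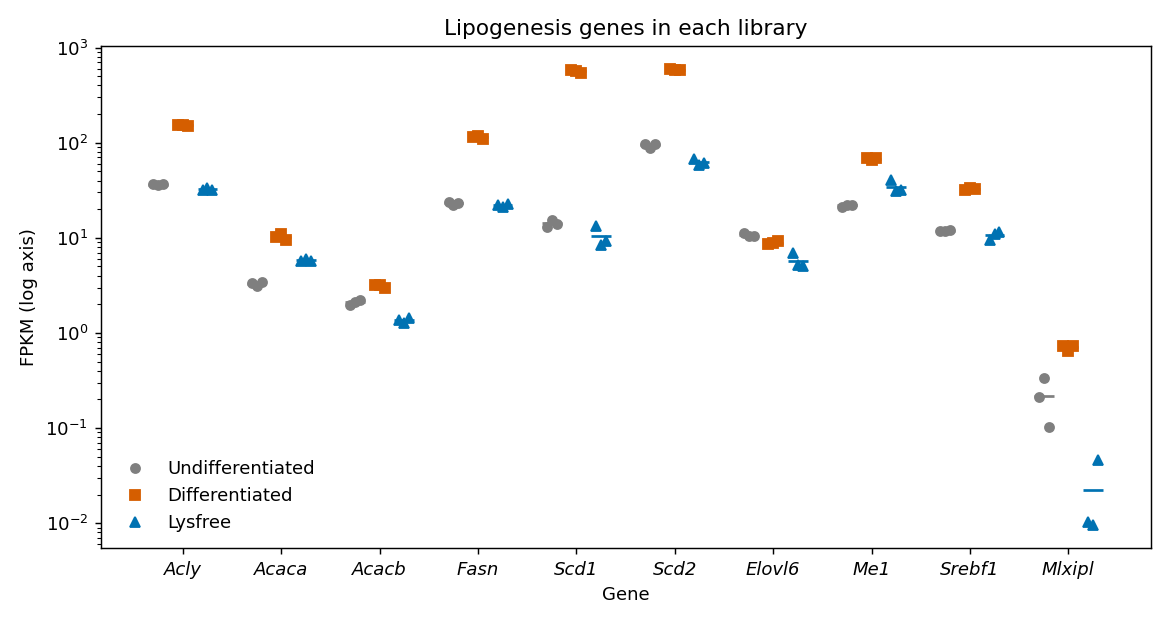
FPKM of the 10 lipogenesis genes (horizontal axis) in each of the 9 libraries, on a log axis, with circles for Undifferentiated, squares for Differentiated and triangles for Lysfree. Horizontal lines mark group means (n = 3). Differentiated libraries lie above all others for every gene except Elovl6, whose highest values are in Undifferentiated libraries.

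The 250 bases upstream of a transcription start were taken from RefSeq (GRCm38.p6) for 8 of the 10 genes, which gave 12 start sites. Some starts lie away from the deposited 5′ end of the gene, such as those of Acaca (65766 bases) and Acacb (18983 bases). Scd1 and Scd2 had no entry. The windows of Fasn and Acly, which had closely similar profiles over the libraries, of Elovl6, which was not called in any comparison, and of Mlxipl, the gene called in all 3 comparisons, are shown 5′ to 3′ on the gene's strand, ending at the base before the start. The windows are at chr11:120824548-120824797 (minus strand) for Fasn, chr11:100528001-100528250 (minus) for Acly, chr3:129532136-129532385 (plus) for Elovl6 and chr5:135089640-135089889 (plus) for Mlxipl. Capitals mark matches on either strand to the E-box CACGTG, read by USF proteins and, in pairs, by ChREBP, the CCAAT box CCAAT, read by NF-Y, the GC box GGGCGG, read by Sp1, and the sterol element TCACNCCAC, read by SREBP.
Fasn: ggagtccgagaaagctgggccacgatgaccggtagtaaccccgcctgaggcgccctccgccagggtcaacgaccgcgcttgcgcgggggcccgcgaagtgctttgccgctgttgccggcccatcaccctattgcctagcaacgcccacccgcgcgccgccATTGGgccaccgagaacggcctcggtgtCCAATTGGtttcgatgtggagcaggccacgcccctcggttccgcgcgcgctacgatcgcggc
Acly: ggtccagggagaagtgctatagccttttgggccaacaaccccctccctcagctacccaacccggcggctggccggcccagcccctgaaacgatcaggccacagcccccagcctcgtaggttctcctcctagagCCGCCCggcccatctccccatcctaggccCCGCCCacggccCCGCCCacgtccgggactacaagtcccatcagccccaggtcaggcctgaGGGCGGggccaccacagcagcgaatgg
Elovl6: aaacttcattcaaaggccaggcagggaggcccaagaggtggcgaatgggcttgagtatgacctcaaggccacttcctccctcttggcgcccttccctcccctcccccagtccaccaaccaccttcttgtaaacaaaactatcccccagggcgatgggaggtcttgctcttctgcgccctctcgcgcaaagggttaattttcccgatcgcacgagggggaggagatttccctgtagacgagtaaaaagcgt
Mlxipl: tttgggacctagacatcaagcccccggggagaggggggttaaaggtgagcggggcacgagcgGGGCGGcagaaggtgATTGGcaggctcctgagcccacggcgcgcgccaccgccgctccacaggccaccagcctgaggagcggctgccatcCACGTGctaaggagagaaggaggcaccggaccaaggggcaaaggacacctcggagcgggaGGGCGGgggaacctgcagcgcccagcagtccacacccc
The Fasn window held 3 CCAAT boxes, 1 of them from 90 to 86 bases before the start and an overlapping pair on opposite strands from 62 to 55. The Acly window held 4 GC boxes, the nearest from 27 to 22 bases before the start. In the Mlxipl window there were an E-box from 98 to 93 bases before the start, a CCAAT box and 2 GC boxes. None of these letters occurred in the Elovl6 window. Of all 32817 promoter windows of this length, 6.02% held the E-box, 33.8% the CCAAT box, 32.7% the GC box and 1.05% the sterol element, compared with 1, 6, 5 and 1 of the 12 windows of the lipogenesis genes. The sterol element lay in another Mlxipl window, not shown, whose start is 17001 bases from the deposited 5′ end of the gene. These matches describe letters only, and no binding was measured.

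Acly (ENSMUSG00000020917, chr11:100476353-100528000, minus strand), the ATP citrate lyase gene, was 36.7, 35.7 and 36.8 FPKM in Undifferentiated libraries. In Differentiated libraries it was 155, 155 and 152, and in Lysfree libraries 31.8, 33.3 and 31.6. Differentiated libraries were thus far above all others, and Lysfree libraries lay just below Undifferentiated ones with no overlap. Acly rose 4.15-fold in Differentiated vs Undifferentiated (log2 fold change 2.05 ± 0.05 SE). Its adjusted p in that fit, like those of Fasn, Scd1 and Scd2, was too small for the software to hold. It was 6e-63 in a single edgeR fit of all 9 libraries. P-values of these fits cannot be compared, since the pairwise fit of this comparison had infinite prior degrees of freedom. In the fit of all 9 libraries the edgeR adjusted p of Acaca, Me1 and Srebf1 was 2.5e-41, 6.7e-43 and 1.3e-35. In a pairwise edgeR fit with a filter on low counts, Acaca had an adjusted p of 9.8e-11. Acly fell by 2.19 ± 0.08 on the log2 scale in Lysfree vs Differentiated (edgeR adjusted p = 8e-15). Lysfree vs Undifferentiated gave −0.13 ± 0.10 (edgeR adjusted p = 0.35). Without Lysfree replicate 1 this value was −0.14 with an edgeR adjusted p of 0.048.

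The carboxylase has a cytosolic form, encoded by Acaca, which feeds fatty acid synthesis, and a form at the mitochondrial surface, encoded by Acacb, whose malonyl-CoA restrains fatty acid import for oxidation. Acaca (ENSMUSG00000020532, chr11:84129672-84401651, plus) was 3.35, 3.14 and 3.39 FPKM in Undifferentiated, 10.1, 10.9 and 9.39 in Differentiated, and 5.70, 5.96 and 5.70 in Lysfree libraries. The 3 groups formed separate tiers, with Lysfree in between. Acaca rose in Differentiated vs Undifferentiated by a log2 fold change of 1.60 ± 0.06 (edgeR adjusted p = 4.5e-149). The other comparisons passed adjusted p but not the 2-fold threshold, at −0.74 ± 0.09 in Lysfree vs Differentiated (edgeR adjusted p = 7.6e-07) and 0.86 ± 0.10 in Lysfree vs Undifferentiated (edgeR adjusted p = 1.9e-08).

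Acacb (ENSMUSG00000042010, chr5:114146535-114250761, plus) was 1.98, 2.13 and 2.22 FPKM in Undifferentiated, 3.18, 3.20 and 3.00 in Differentiated, and 1.38, 1.28 and 1.45 in Lysfree libraries. Unlike Acaca, its lowest tier was Lysfree. The log2 fold change was 0.54 ± 0.09 in Differentiated vs Undifferentiated (edgeR adjusted p = 8.6e-09, under 2-fold) and −0.57 ± 0.14 in Lysfree vs Undifferentiated (edgeR adjusted p = 0.0012, under 2-fold). In Lysfree vs Differentiated Acacb fell by 1.13 ± 0.12 (edgeR adjusted p = 1.4e-07).

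The balance of the 2 carboxylase genes was taken within each library, on length-scaled FPKM. Acacb made up 39.0% ± 1.68 (SD, n = 3) of their summed FPKM in Undifferentiated, 23.6% ± 0.802 in Differentiated and 19.1% ± 1.34 in Lysfree libraries. The libraries of the 3 groups did not overlap, ranging from 37.2 to 40.4%, from 22.7 to 24.2% and from 17.7 to 20.3%. The log2 ratio of Acacb to Acaca differed by −1.05 in Differentiated minus Undifferentiated, −1.44 in Lysfree minus Undifferentiated and −0.39 in Lysfree minus Differentiated. Each gave p = 0.1 in a two-sided exact permutation test, the smallest p that 3 libraries against 3 allow, and 0.12 after Benjamini-Hochberg adjustment over the 6 ratio comparisons made. Acacb was thus the smaller part in every library, and its share was lower in both groups given adipogenic agents.

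**Figure D2:**
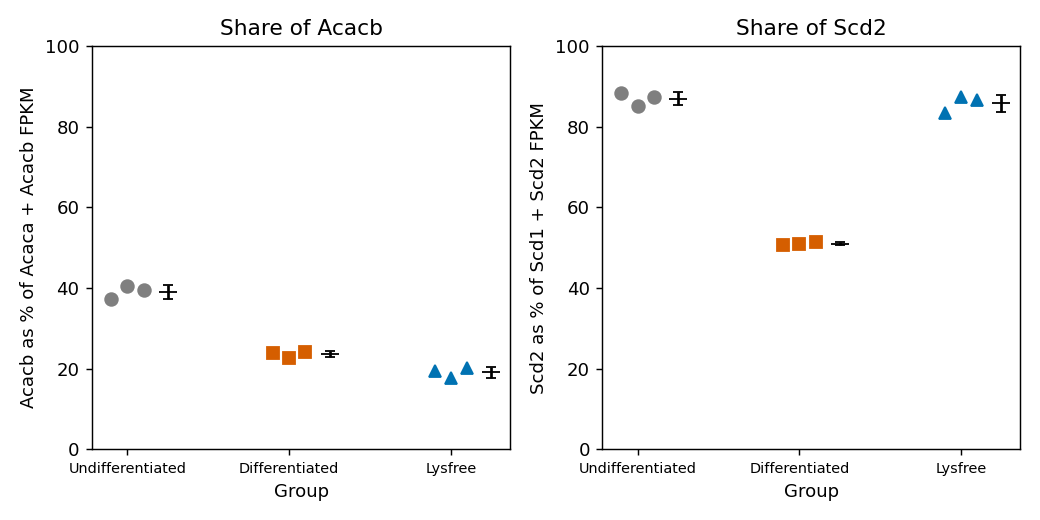
Share of Acacb in the summed FPKM of Acaca and Acacb (left) and of Scd2 in the summed FPKM of Scd1 and Scd2 (right), in percent, by group. Each symbol is a library and the black marks are the mean ± SD (n = 3). Scd2 holds 50.7 to 51.4% in Differentiated libraries and 83.4 to 88.2% in the others.

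Fasn (ENSMUSG00000025153, chr11:120805846-120824547, minus), which encodes the fatty acid synthase, was 24.0, 22.1 and 23.3 FPKM in Undifferentiated libraries. It reached 116, 118 and 111 in Differentiated libraries and stood at 22.2, 21.1 and 22.5 in Lysfree libraries. Lysfree and Undifferentiated libraries overlapped, and Differentiated libraries were well above both. Fasn rose 4.87-fold in Differentiated vs Undifferentiated (log2 fold change 2.28 ± 0.05, edgeR adjusted p = 3.4e-72 in the fit of all 9 libraries). It fell by 2.32 ± 0.08 on the log2 scale in Lysfree vs Differentiated (edgeR adjusted p = 2.3e-15). Lysfree vs Undifferentiated gave −0.03 ± 0.10 (edgeR adjusted p = 0.83), a difference smaller than its error.

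The stearoyl-CoA desaturases place the double bond that turns stearate into oleate. Scd1 (ENSMUSG00000037071, chr19:44394451-44407709, minus) was 13.0, 15.6 and 14.0 FPKM in Undifferentiated, 584, 566 and 547 in Differentiated, and 13.4, 8.50 and 9.33 in Lysfree libraries. Scd1 rose 39.2-fold in Differentiated vs Undifferentiated (log2 fold change 5.29 ± 0.05, edgeR adjusted p = 3e-133 in the fit of all 9 libraries). In Lysfree vs Differentiated it was 52.1-fold lower (log2 fold change −5.70 ± 0.14, edgeR adjusted p = 5.8e-18). Lysfree vs Undifferentiated gave −0.40 ± 0.13 (edgeR adjusted p = 0.013), under 2-fold and with overlapping libraries. This adjusted p did not pass in 6 of 14 alternatives, over which it ranged from 3.4e-15 to 0.11. Without Lysfree replicate 1, the highest of its group, this value was −0.65 and that against Differentiated −5.94.

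Scd2 (ENSMUSG00000025203, chr19:44293676-44306864, plus), a neighbour of Scd1 on the chromosome, was 97.4, 89.0 and 97.0 FPKM in Undifferentiated libraries. Differentiated libraries reached 599.8, 588 and 578, and Lysfree libraries were at 67.2, 58.7 and 60.8. Lysfree libraries were all below Undifferentiated ones. The log2 fold change was 2.61 ± 0.05 in Differentiated vs Undifferentiated (a 6.12-fold rise, edgeR adjusted p = 4.7e-87 in the fit of all 9 libraries). Scd2 was 9.05-fold lower in Lysfree vs Differentiated, at −3.18 ± 0.08 (edgeR adjusted p = 1.3e-17). Lysfree vs Undifferentiated gave −0.56 ± 0.10 (edgeR adjusted p = 1.2e-05, under 2-fold). Without Lysfree replicate 1, the highest of its group, Scd2 was at −3.25 against Differentiated and −0.64 against Undifferentiated.

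Of these 2 desaturase genes, Scd2 was the more abundant in Undifferentiated and Lysfree libraries, while in Differentiated libraries the 2 overlapped. Of the summed FPKM of Scd1 and Scd2, Scd2 held 86.9% ± 1.63 (SD, n = 3) in Undifferentiated, 51.0% ± 0.368 in Differentiated and 85.8% ± 2.11 in Lysfree libraries. The log2 ratio of Scd2 to Scd1 differed by −2.68 in Differentiated minus Undifferentiated and by 2.55 in Lysfree minus Differentiated, each at p = 0.1 in the two-sided exact permutation test (0.12 adjusted). Lysfree minus Undifferentiated was −0.13 (exact permutation p = 0.5, also 0.5 adjusted) and 0.01 without Lysfree replicate 1. Scd1 and Scd2 are close in sequence, and how the counting divided reads that match both was not stated, so these ratios are uncertain to that extent. Both genes together took 44.0% ± 0.351 of the counts of the 10 genes in Undifferentiated, 68.1% ± 0.362 in Differentiated and 34.1% ± 1.48 in Lysfree libraries.

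Elovl6 (ENSMUSG00000041220, chr3:129532355-129638495, plus), the elongase that lengthens palmitate to stearate, had another pattern. It was 11.3, 10.4 and 10.5 FPKM in Undifferentiated, 8.61, 8.89 and 9.23 in Differentiated, and 6.92, 5.14 and 5.06 in Lysfree libraries. Undifferentiated libraries were highest and Lysfree libraries lowest, with no overlap. No comparison reached 2-fold, with log2 fold changes of −0.29 ± 0.07 in Differentiated vs Undifferentiated (edgeR adjusted p = 4.7e-05), −0.58 ± 0.12 in Lysfree vs Differentiated (edgeR adjusted p = 0.00041) and −0.86 ± 0.12 in Lysfree vs Undifferentiated (edgeR adjusted p = 3.3e-07). Without Lysfree replicate 1, Lysfree vs Undifferentiated reached −1.05 (edgeR adjusted p = 3.5e-35) and was called lower.

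Me1 (ENSMUSG00000032418, chr9:86581371-86695953, minus), the cytosolic malic enzyme that yields NADPH, was 21.3, 22.4 and 22.3 FPKM in Undifferentiated, 69.5, 65.6 and 68.9 in Differentiated, and 40.1, 31.3 and 32.1 in Lysfree libraries. As for Acaca, Lysfree lay between the other groups. Me1 rose in Differentiated vs Undifferentiated (log2 fold change 1.60 ± 0.06, edgeR adjusted p = 4.6e-172). Lysfree vs Differentiated gave −0.91 ± 0.10 (edgeR adjusted p = 1e-07) and Lysfree vs Undifferentiated 0.69 ± 0.11 (edgeR adjusted p = 1.9e-06), both under 2-fold. Without Lysfree replicate 1 the former was −1.05 (edgeR adjusted p = 1.1e-112) and was called lower, and the latter 0.55.

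Srebf1 (ENSMUSG00000020538, chr11:60199089-60222581, minus) encodes SREBP-1, a membrane-bound factor whose release by cleavage activates lipogenic genes. Transcript levels were 11.9, 11.8 and 12.0 FPKM in Undifferentiated, 31.9, 33.4 and 32.9 in Differentiated, and 9.57, 10.9 and 11.4 in Lysfree libraries. In FPKM, Lysfree libraries were all just below Undifferentiated ones, a small gap that depends on how FPKM was scaled. Srebf1 rose in Differentiated vs Undifferentiated (log2 fold change 1.43 ± 0.06, edgeR adjusted p = 1.9e-126) and fell by 1.56 ± 0.10 in Lysfree vs Differentiated (edgeR adjusted p = 2.2e-11). Lysfree vs Undifferentiated gave −0.11 ± 0.11 (edgeR adjusted p = 0.46). Rai1 overlaps Srebf1 on the opposite strand in 109 of its 5634 exonic bases (1.93%), and the strand setting of the counting was not stated. Rai1 itself was 8.25 ± 1.24, 10.4 ± 0.662 and 6.27 ± 1.73 FPKM in the 3 groups.

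Mlxipl (ENSMUSG00000005373, chr5:135089890-135138382, plus) encodes ChREBP, a factor that responds to glucose metabolites, and was the least abundant of the 10 genes in every group. It was 0.212, 0.338 and 0.101 FPKM in Undifferentiated libraries, from 25, 41 and 9 counts. In Differentiated libraries it was 0.724, 0.650 and 0.738 FPKM (62, 67 and 66 counts) and in Lysfree libraries 0.0103, 0.00947 and 0.0465 (1, 1 and 5 counts). The groups did not overlap, but the Lysfree values rested on 7 counts in all, with replicates 1 and 2 under the detection floor of 3 counts. Mlxipl rose in Differentiated vs Undifferentiated (log2 fold change 1.61 ± 0.26, edgeR adjusted p = 1.6e-09). It was called lower in Lysfree vs Differentiated (−4.82 ± 0.42, edgeR adjusted p = 5.7e-09) and in Lysfree vs Undifferentiated (−3.19 ± 0.61, edgeR adjusted p = 5.9e-05). From pooled counts per total count, the level was 28.2-fold lower in Lysfree than in Differentiated libraries (95% exact interval 13.4 to 71.1) and 9.60-fold lower than in Undifferentiated libraries (4.44 to 24.7). These intervals cover counting error only. Without Lysfree replicate 1 the fitted values were −4.54 and −2.91, and without replicate 3, which held 5 of the 7 counts, −5.92 and −4.29.

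**Figure D3:**
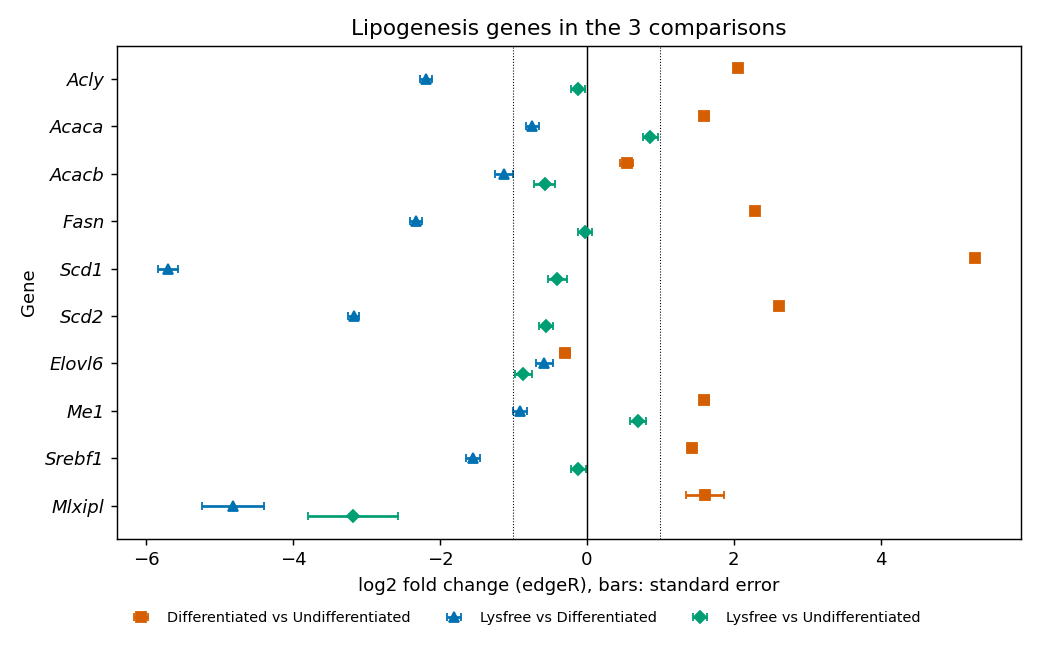
Log2 fold change from edgeR (horizontal axis) with its standard error for each of the 10 genes in 3 comparisons of 3 libraries against 3. Dotted lines mark 2-fold. Values for Lysfree vs Undifferentiated lie within 2-fold for 9 genes, and Mlxipl is at −3.19.

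The order of the levels, per length in FPKM, was read within each group. In Undifferentiated libraries Scd2 (94.5 ± 4.74) stood first, followed by Acly (36.4 ± 0.596), Fasn (23.2 ± 0.957) and Me1 (22.0 ± 0.599), and the libraries of Fasn and Me1 overlapped. Scd1 (14.2 ± 1.31), Srebf1 (11.9 ± 0.127), Elovl6 (10.7 ± 0.477), Acaca (3.29 ± 0.137), Acacb (2.11 ± 0.118) and Mlxipl (0.217 ± 0.118) followed without overlap. In Differentiated libraries Scd2 (589 ± 10.9) and Scd1 (566 ± 18.7) overlapped at the top. They were followed by Acly (154 ± 1.96), Fasn (115 ± 3.75), Me1 (68.0 ± 2.11), Srebf1 (32.7 ± 0.746), Acaca (10.1 ± 0.750), Elovl6 (8.91 ± 0.310), Acacb (3.13 ± 0.109) and Mlxipl (0.704 ± 0.0474). Elovl6 stood above Acaca in Undifferentiated and below it in Differentiated libraries. In Lysfree libraries Scd2 (62.2 ± 4.42) came first and Me1 (34.5 ± 4.88) overlapped Acly (32.3 ± 0.945), followed by Fasn (22.0 ± 0.736). Srebf1 (10.6 ± 0.960) overlapped Scd1 (10.4 ± 2.60), Acaca (5.79 ± 0.149) overlapped Elovl6 (5.71 ± 1.05), and Acacb (1.37 ± 0.0859) and Mlxipl (0.0221 ± 0.0212) were last.

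The other genes of the pathway were taken from 7 lists of 81 genes, of which 79 were tested. The lists were chosen with earlier results of these data known, so their shares describe them and are no independent test. In Differentiated vs Undifferentiated 36 were called higher and 3 lower, in Lysfree vs Differentiated 2 higher and 32 lower, and in Lysfree vs Undifferentiated 6 higher and 7 lower. Without Lysfree replicate 1, a check added after seeing the data, the latter counts were 2 and 34, and 7 and 9. As shares of the 79 genes, 45.6% were higher and 3.80% lower in Differentiated vs Undifferentiated, beside 10.4% and 11.4% of all genes tested, and 2.53% and 40.5% in Lysfree vs Differentiated, beside 8.14% and 10.5%. In Lysfree vs Undifferentiated the shares of 7.59% and 8.86% lay near those of all genes tested, 5.52% and 8.76%, and are no result about the lists.

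All 10 genes that supply acetyl-CoA and citrate were called higher in Differentiated vs Undifferentiated (median log2 fold change 2.59), 9 were called lower in Lysfree vs Differentiated (median −2.92) and 1 lower in Lysfree vs Undifferentiated (median −0.43). Of all genes tested, 10.4% were called higher in Differentiated vs Undifferentiated and 10.5% lower in Lysfree vs Differentiated. The 10% lower in Lysfree vs Undifferentiated lay near the 8.76% of all genes and is no result about the list. The gene called in the last comparison was Slc25a10, the mitochondrial dicarboxylate carrier. It was at 10.1 ± 1.12 FPKM in Undifferentiated, 133 ± 6.31 in Differentiated and 2.51 ± 0.276 in Lysfree libraries. Pcx, the pyruvate carboxylase, had the highest level of the list in Differentiated libraries, at 558 ± 8.39 FPKM, against 32.4 ± 2.92 in Undifferentiated and 17.8 ± 1.53 in Lysfree. Slc25a1, which exports citrate to Acly, was 48.6 ± 3.17, 367 ± 12.0 and 31.2 ± 5.92 FPKM in the order Undifferentiated, Differentiated and Lysfree. Acss2, which makes acetyl-CoA from acetate, was 1.41 ± 0.0940, 16.6 ± 0.466 and 1.14 ± 0.226 FPKM in the same order.

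Of 9 genes of NADPH supply other than Me1, 6 were called higher and 1 lower in Differentiated vs Undifferentiated (median 1.16), and 5 lower in Lysfree vs Differentiated (median −1.45). In Lysfree vs Undifferentiated 2 were called higher and 1 lower (median −0.04), and without Lysfree replicate 1 Idh1 was also called lower, just past 2-fold (edgeR adjusted p = 6.1e-57). As shares, 66.7% were higher and 11.1% lower in Differentiated vs Undifferentiated, beside 10.4% and 11.4% of all genes tested. In Lysfree vs Differentiated 55.6% were lower, beside 10.5%. The 22.2% higher and 11.1% lower in Lysfree vs Undifferentiated, beside 5.52% and 8.76%, came from few genes. They are no result about the list. Taldo1, the transaldolase of the pentose phosphate pathway, was 31.5 ± 3.24, 276 ± 4.89 and 65.0 ± 5.99 FPKM in Undifferentiated, Differentiated and Lysfree. It was called higher in Lysfree vs Undifferentiated (1.09). Tkt, the transketolase of the same pathway, was 22.6 ± 0.114, 71.4 ± 2.15 and 13.8 ± 0.938 FPKM, at −0.66 in Lysfree vs Undifferentiated. G6pdx, which opens this pathway, was 26.3 ± 1.16, 91.4 ± 2.84 and 29.6 ± 0.740 FPKM, and Idh1, the cytosolic isocitrate dehydrogenase, 87.3 ± 3.03, 198 ± 4.97 and 46.0 ± 5.47. Chosen after their values were seen, since few genes were called, are the malic enzymes Me3 (−2.26 in Differentiated vs Undifferentiated, from 10, 8 and 11 against 4, 1 and 0 counts) and Me2 (1.10 in Lysfree vs Undifferentiated), and H6pd (−1.45 in Lysfree vs Differentiated and −1.42 in Lysfree vs Undifferentiated). DESeq2 called 0 genes of this list lower in Differentiated vs Undifferentiated, where 1 had an unadjusted edgeR p under 0.05.

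Among 19 tested genes of elongation and desaturation, 9 were called higher and 2 lower in Differentiated vs Undifferentiated (median 0.84), 1 higher and 8 lower in Lysfree vs Differentiated (median −0.81), and 2 higher and 3 lower in Lysfree vs Undifferentiated (median 0.38). As shares, 47.4% were higher and 10.5% lower in Differentiated vs Undifferentiated, beside 10.4% and 11.4% of all genes tested. In Lysfree vs Differentiated 5.26% and 42.1% stood beside 8.14% and 10.5%. The 10.5% higher and 15.8% lower in Lysfree vs Undifferentiated, beside 5.52% and 8.76%, came from few genes. They are no result about the list. Hacd2, a dehydratase of the elongation cycle, was 32.5 ± 0.837, 108 ± 4.02 and 11.2 ± 2.51 FPKM in Undifferentiated, Differentiated and Lysfree. Fads2, the delta-6 desaturase of polyunsaturated fatty acids, was 46.5 ± 1.71, 113 ± 3.99 and 27.8 ± 0.414 FPKM. The gene called higher in Lysfree vs Differentiated was Elovl4, an elongase of very long chains, at 0.421 ± 0.0300, 0.0608 ± 0.0250 and 0.676 ± 0.124 FPKM. Scd3 was 0.0741 ± 0.0351, 1.83 ± 0.389 and 0.344 ± 0.129 FPKM, and its close likeness to Scd1 and Scd2 leaves its counts uncertain. The remaining genes called in Lysfree vs Undifferentiated, named after their values were seen, were Fads3 (1.69), Hacd4 (−3.28) and Cyb5a (−1.69) beside Scd3 (2.17) and Hacd2 (−1.50), and Hacd4 was also lower in Differentiated vs Undifferentiated (−2.48). It was called lower in Lysfree vs Differentiated (−1.03) too when Lysfree replicate 1 was left out.

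Mitochondrial fatty acid synthesis is a separate route that makes the precursor of lipoate. Of 7 genes tested, 2 were called higher in Differentiated vs Undifferentiated (Mecr at 1.46 and Ndufab1 at 1.61, median 0.86), 1 lower in Lysfree vs Differentiated (Mcat at −1.17, median −0.77) and 1 higher in Lysfree vs Undifferentiated (Mecr at 1.52, median 0.09). As shares, 28.6% were higher in Differentiated vs Undifferentiated, beside 10.4% of all genes tested. This share came from 2 genes and is no result about the list. The 14.3% lower in Lysfree vs Differentiated and 14.3% higher in Lysfree vs Undifferentiated, beside 10.5% and 5.52%, were 1 gene each. They are no result about the list. Mcat, the malonyl transferase of this route, was 15.0 ± 2.03, 27.7 ± 1.41 and 11.8 ± 1.54 FPKM. Cbr4 was also called lower in Lysfree vs Differentiated (−1.05) without Lysfree replicate 1. Mecr, Ndufab1 and Cbr4 were named after their values were seen.

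Of 11 genes that process SREBP or act with it, 1 was called in Differentiated vs Undifferentiated and in Lysfree vs Differentiated, and it was Insig1, whose product holds SREBP in the endoplasmic reticulum. This 1 gene is 9.09% of the list, near the 10.4% higher and 10.5% lower of all genes tested. The count is thus no result about the list. Insig1 was 15.5, 18.1 and 17.3 FPKM in Undifferentiated, 190, 190 and 194 in Differentiated, and 10.1, 8.87 and 8.53 in Lysfree libraries. Its 3 groups did not overlap, with log2 fold changes of 3.47 ± 0.06, −4.32 ± 0.10 in Lysfree vs Differentiated (edgeR adjusted p = 3.7e-18) and −0.84 ± 0.12 in Lysfree vs Undifferentiated (edgeR adjusted p = 4.3e-07). The list medians were −0.02, 0.17 and −0.06 in the order Differentiated vs Undifferentiated, Lysfree vs Differentiated and Lysfree vs Undifferentiated. In Lysfree vs Undifferentiated edgeR and DESeq2 each called 0 of the 11 genes, and 3 higher and 3 lower had an unadjusted edgeR p under 0.05.

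Among 11 partners of ChREBP, liver X receptors and lipogenic cofactors, 4 were called higher in Differentiated vs Undifferentiated (median 0.64), 1 higher and 6 lower in Lysfree vs Differentiated (median −1.05) and 2 lower in Lysfree vs Undifferentiated (median −0.06). As shares, 36.4% were higher in Differentiated vs Undifferentiated, beside 10.4% of all genes tested. In Lysfree vs Differentiated 9.09% were higher and 54.5% lower, beside 8.14% and 10.5%. The 18.2% lower in Lysfree vs Undifferentiated, beside 8.76%, came from few genes and is no result about the list. In the last comparison DESeq2 called 3 lower. Without Lysfree replicate 1 edgeR called 1 higher there (Mid1ip1 at 1.13) and 3 lower, with Rxra, a partner of the liver X receptors, at −1.01. Thrsp, the lipogenic protein Spot 14, was 3.11, 4.35 and 3.11 FPKM in Undifferentiated, 12.8, 13.0 and 12.2 in Differentiated, and 0.0260, 0.0719 and 0.118 in Lysfree libraries, where it rested on 1, 3 and 5 counts. Its log2 fold change was 1.81 ± 0.11 in Differentiated vs Undifferentiated, −7.31 ± 0.25 in Lysfree vs Differentiated and −5.49 ± 0.35 in Lysfree vs Undifferentiated (edgeR adjusted p = 3.2e-61, 2.3e-15 and 1.8e-14). Mid1ip1, which is related to Thrsp and aids carboxylase assembly, was highest in Lysfree, at 20.6, 24.0 and 20.6 FPKM in Undifferentiated, 18.1, 19.4 and 17.4 in Differentiated, and 28.5, 45.2 and 48.8 in Lysfree libraries. It was called higher in Lysfree vs Differentiated (1.22 ± 0.15, edgeR adjusted p = 6.3e-07), with the lowest Lysfree value in replicate 1.

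Pnpla3, a lipid droplet acyltransferase and hydrolase, was 0.705 ± 0.182 FPKM in Undifferentiated and 14.1 ± 0.629 in Differentiated libraries. In Lysfree libraries it had 0, 11 and 0 counts, so that replicate 2 alone set its level there. Ppargc1b, a coactivator of SREBP, was 0.679 ± 0.0434, 13.3 ± 0.695 and 1.03 ± 0.210 FPKM in Undifferentiated, Differentiated and Lysfree. Nr1h3, the liver X receptor alpha gene, was 4.25 ± 0.548, 32.3 ± 0.550 and 5.94 ± 0.866 FPKM in the same order.

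Of 12 genes of AMP-activated kinase and malonyl-CoA control, which restrain the carboxylases or remove their product, 4 were called higher in Differentiated vs Undifferentiated (median 0.68), 2 lower in Lysfree vs Differentiated (median −0.35) and 1 higher in Lysfree vs Undifferentiated (median 0.20). In Differentiated vs Undifferentiated 33.3% were higher, beside 10.4% of all genes tested. The 16.7% lower and 8.33% higher in the comparisons with Lysfree lay near the 10.5% and 5.52% of all genes tested. They are no result about the list. Mlycd, which degrades malonyl-CoA, was 3.75 ± 0.292, 9.12 ± 0.400 and 3.79 ± 0.621 FPKM in Undifferentiated, Differentiated and Lysfree, and the kinase subunit gene Prkag2 was 2.36 ± 0.207, 8.50 ± 0.528 and 1.73 ± 0.419. The gene called in Lysfree vs Undifferentiated was the kinase subunit gene Prkaa2 (1.17, from 23, 18 and 34 against 11, 14 and 11 counts), also higher in Differentiated vs Undifferentiated (1.23) with Prkab2 (1.13), both named after their values were seen. DESeq2 called 0 genes of this list in Lysfree vs Undifferentiated, and 5 higher and 3 lower had an unadjusted edgeR p under 0.05.

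**Figure D4:**
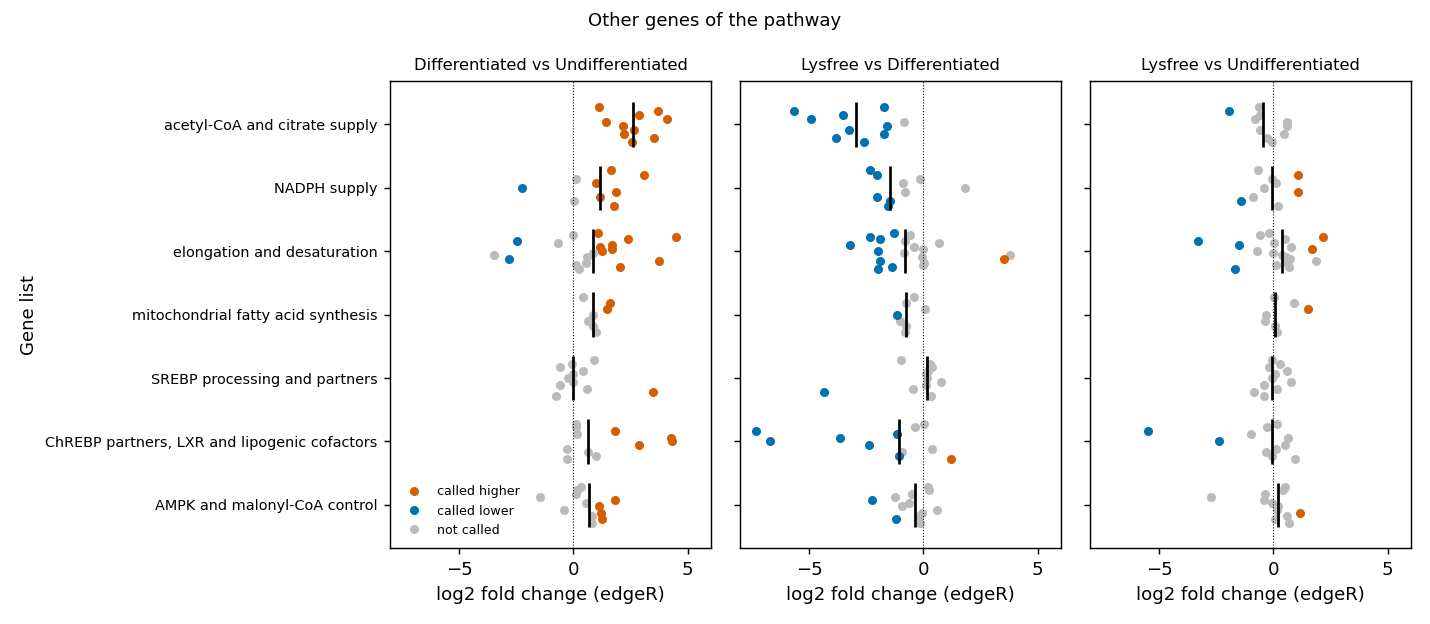
Log2 fold change from edgeR for 79 genes of 7 pathway lists in 3 comparisons, 1 panel each. Points are genes, coloured by call, and black bars are list medians. Acetyl-CoA and citrate supply has medians of 2.59 and −2.92 in the first and middle panels and −0.43 in the last.

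The genes most like a lipogenesis gene in profile were found from log2 CPM over the 9 libraries, centred on each gene's mean, by the root mean square difference among 12709 other genes of a mean CPM of at least 1. Fasn was nearest to Dlc1 (0.08), Cdc45 (0.08), a gene of the replicative helicase, and Slc37a2 (0.09), a sugar phosphate carrier gene, and Acly ranked 6 at 0.11. Scd1 was nearest to Acsl1 (0.07), which activates long-chain fatty acids and was 6.83 ± 0.893, 269.0 ± 2.39 and 4.90 ± 0.812 FPKM in Undifferentiated, Differentiated and Lysfree, then to Mc5r (0.24), a melanocortin receptor gene, and Arxes2 (0.30). Srebf1 was nearest to Tufm (0.06), a mitochondrial translation factor gene, Pla2g6 (0.07), a phospholipase gene, and Hadha (0.07), which encodes a subunit of the enzyme of mitochondrial beta-oxidation. Mlxipl was nearest to Ptpn6 (0.43), a phosphatase gene, Timp4 (0.44), a metalloproteinase inhibitor gene, and Sema4g (0.46), a semaphorin gene, at differences larger than those of the other 3 genes. These profiles rest on 3 groups of libraries and describe likeness only.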

How the data were processed

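The authors sequenced poly A RNA of 9 libraries as paired reads, mapped them to mm10 (GRCm38) and deposited raw counts per gene and FPKM, which scales counts by gene length and library total, for 54532 genes. The submitters' processing notes name HISAT2 2.0.5 and featureCounts 1.5.0-p3. The strand setting and annotation are not given in the sources used here. Coordinates are those of the deposited tables.

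Counts were tested with edgeR 4.0.16 in R 4.3.3 (TMM, quasi-likelihood, Benjamini-Hochberg adjustment), separately for each pair of groups (6 libraries), after removing genes with 0 counts in all 6. A call required at least a 2-fold difference and an adjusted p under 0.05. Standard errors are the log2 fold change divided by the root of F. The scripts were tested on simulated data. FPKM as deposited gave levels and ratios. By its median, it was 0.932 to 1.04 times the counts scaled by length and total, lowest in Lysfree libraries. Small gaps in FPKM between groups depend on this scaling. The floor of 3 counts served to describe levels and removed no gene from the tests.

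The genes and lists were chosen with earlier results of these data known. Of 81 list genes, 80 were found by symbol (Hsd17b8 was not) and Elovl2 had no counts. Named from each list were up to 4 genes called in Lysfree vs Differentiated with the largest changes, and up to 2 in the direction fewer genes took. The defining markers and, for Fasn, Scd1, Srebf1 and Mlxipl, the 3 nearest profiles were named too. Alternatives were DESeq2 1.42.0, limma 3.58.1 on log2(FPKM + 1) and log2(FPKM + 0.1), other scaling, filters and sample sets, a replicate block and leaving out each library.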

Additional observations from a re-analysis of the deposited data

How the results depend on the processing

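Of the values of single genes under alternatives, 413 kept their direction and their call (adjusted p and 2-fold together), 2 became called, 4 were no longer called and 1 reversed. By adjusted p alone, 8 crossed 0.05, all in Lysfree vs Undifferentiated and under 2-fold. Scd1 no longer passed in 6, at adjusted p of 0.054 (edgeR with a filter on low counts), 0.11 and 0.1 (limma with pseudocounts of 1 and 0.1), 0.1 (without Lysfree replicate 2), 0.063 and 0.096 (without Undifferentiated replicates 2 and 3), and Acly passed in 2, at 0.034 (limma, pseudocount 1) and 0.048 (without Lysfree replicate 1). The reversal was Fasn in Lysfree vs Undifferentiated, at 0.0014 with library sizes alone (edgeR adjusted p = 0.99). With no fold threshold, called genes numbered 11260 in Differentiated vs Undifferentiated, and 8428 and 9280 in Lysfree against Undifferentiated and against Differentiated cells, against 5329, 3426 and 4507. List genes called were then 67, 44 and 59, and 7 members were called in Lysfree vs Undifferentiated. With limma on log2(FPKM + 1), which shrinks low genes by construction, called genes numbered 2726, 1474 and 2198. The member median was then 1.48 in Differentiated vs Undifferentiated and −1.25 in Lysfree vs Differentiated, and 0 members were called in Lysfree vs Undifferentiated, where edgeR and DESeq2 each called 1 and 7 had an unadjusted edgeR p under 0.05. On that scale Mlxipl was at 0.49 in Differentiated vs Undifferentiated, −0.25 in Lysfree vs Undifferentiated and −0.74 in Lysfree vs Differentiated. Acacb was at −0.80 in Lysfree vs Differentiated. Leaving out each library gave member medians of 1.59 to 1.83 in Differentiated vs Undifferentiated (1.83 without Undifferentiated replicate 2), 1 to 2 members called in Lysfree vs Undifferentiated (2 without Lysfree replicate 1) and 7 to 8 in Lysfree vs Differentiated. The log2 ratio of Scd2 to Scd1 in Lysfree minus Undifferentiated ranged from −0.25 to 0.0063, the latter without Lysfree replicate 1. Leaving a library out of 3 leaves the exact test of a ratio unable to reach p = 0.1.

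Libraries of the same replicate number correlated in their deviations at −0.084 to 0.115, with 2 of 9 pairs above 0.1, and 7 of 18 comparisons were best with their own number. The numbers were not taken as pairing. A replicate block left 8, 1 and 7 members called in that order of comparisons, and 4837, 3179 and 4173 genes in all. For the lists, the block and the leave-one-out counts were added after seeing the data. Depth limits Mlxipl, Thrsp, Pnpla3, Scd3, Elovl4, Me3 and Prkaa2, which had few counts in at least 1 group.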
